A study of Sus scrofa with 20 samples.

Results

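Cells take up glucose and break it down by glycolysis, and 10 genes of uptake and glycolysis were chosen by name for description in pig blood cells: the transporters SLC2A1 and SLC2A3, the hexokinases HK1, HK2 and HK3, the phosphofructokinase genes PFKFB3 and PFKL, and GAPDH, LDHA and PKM. Of these, 7 of 10 were found by the gene name of the array annotation, with 18 probe sets. The array holds 13664 named genes in all. No probe set carried the name HK2, LDHA or PKM, and these 3 genes are not analysed here. Only probe sets brighter than the array median on 16 or more of the 20 arrays were tested, and these are called kept below. This filter left 16 of the 18 probe sets, at least 1 for each of the 7 genes, and 9346 named genes over the whole array. Where several were kept, the gene was represented by its brightest on average.

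The study compared weaned German Landrace piglets on diets with low (L), medium (M) and high (H) contents of phosphorus and calcium, to see which transcripts of circulating cells respond to mineral intake. Profiles of 20 piglets were used, 1 array per animal: 3 females and 3 males on the L diet, 4 females and 3 males on M, and 3 females and 4 males on H. All males were castrated, littermates were among the piglets, and blood was taken from all groups at the age of 63 days. The paper reported that H piglets ate less and gained less weight in the later weeks of the trial. They also had lower serum zinc and showed parakeratosis. Feed intake, growth and health thus differed along with the diet, and their effects cannot be told apart from those of the minerals. Peripheral blood mononuclear cells (PBMC) were isolated on a density gradient, and their RNA was measured on the snowball array (Affymetrix), which covers pig transcripts. Values are log2 levels normalized by RMA, so a difference of 1 is a doubling, and levels of different genes cannot be set against each other.

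Glucose enters blood cells by facilitated diffusion through transporters of the SLC2A family. Hexokinases then trap it as glucose 6-phosphate, phosphofructokinase commits it to glycolysis, and the later enzymes yield pyruvate and lactate. Resting lymphocytes use little glucose, whereas neutrophils and inflammatory monocytes depend largely on glycolysis, and the hexokinase isoform HK3 is mainly known from myeloid cells.

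The array medians lay between 4.29 and 4.46, and the mean level of the 69 background control probe sets between 3.57 and 4.17. The 3 arrays of highest background were those of L replicate 6, M replicate 16 and M replicate 19. No pair of arrays held identical values. T cell markers (9 of 12 listed genes measured), B cell markers (6 of 8) and monocyte markers (7 of 11) were measured above the filter in these PBMC, as were neutrophil markers (9 of 13) and erythroid markers (5 of 8), although a density gradient removes most granulocytes and red cells.

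HK3 and SLC2A3 had higher levels in H than in L animals at an unadjusted p under 0.05, and the other 5 genes did not pass this threshold. The H to L difference was 0.87 for HK3 and 0.76 for SLC2A3 on the log2 scale, while those of the other 5 genes lay between -0.07 and 0.10. No gene was called, where a call required p below 0.01 before adjustment and also q below 0.21 (Storey) over the 22127 kept probe sets. Over all kept probe sets, 0.0271% were called in H against L. Of the 9346 genes, 9.17% passed p under 0.05 in H against L, 4.96% with a higher and 4.21% with a lower level in H. Of the 7 genes, 2 passed, both with a higher level in H. The genes were chosen with earlier results of these data known, and HK3 and SLC2A3 went together over the arrays (r = 0.81), so this count is a description. At p under 0.01 it was 1 of the 7 genes, HK3, against 2.18% of all genes. The median difference of the 7 genes was 0.08, with 5 of 7 above 0, beside a median of -0.02 and 45.1% above 0 over all 9346 genes.

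**Figure D1:**
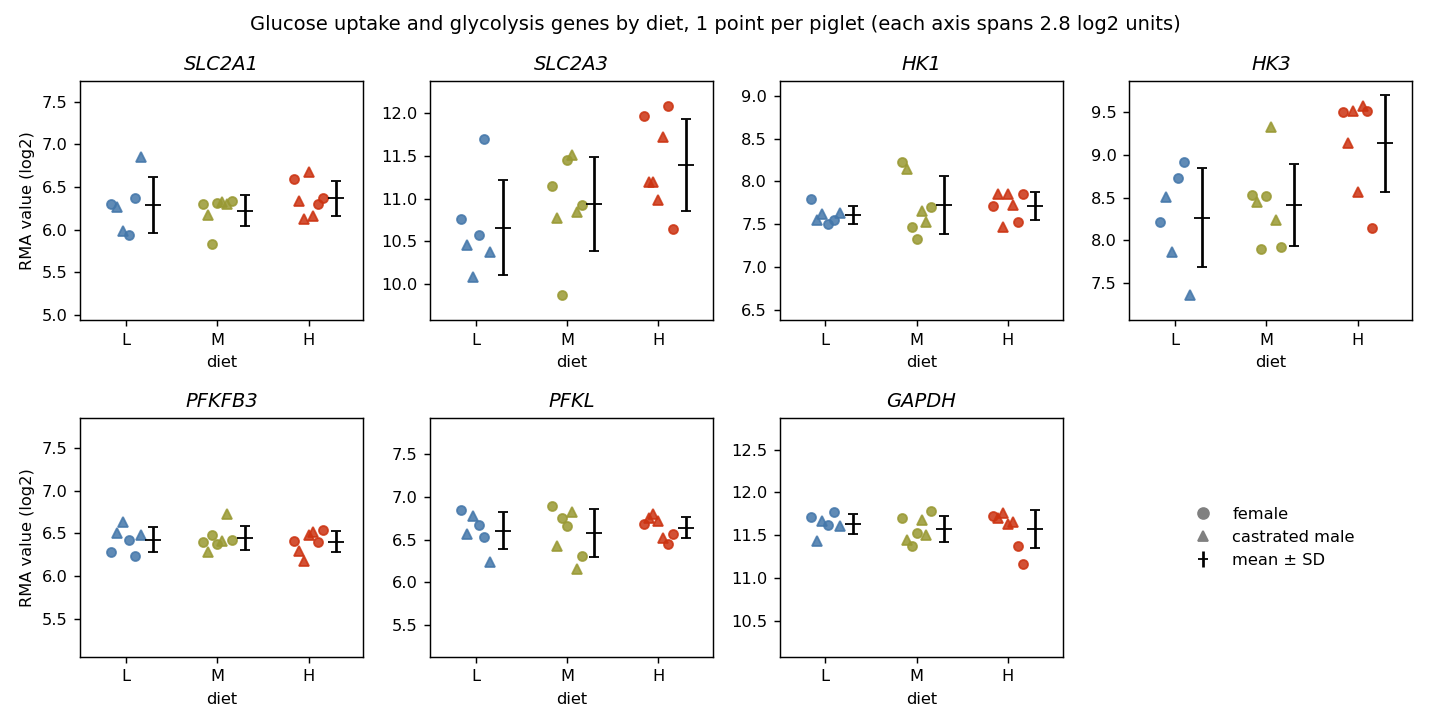
RMA values (log2 scale) of the 7 genes by diet, 1 point per piglet (circles are females, triangles are castrated males), with group mean and SD as black bars; every panel spans the same number of log2 units, and values are of the probe set that stands for the gene. In HK3 5 of 7 and in SLC2A3 3 of 7 H animals lie above every L animal, and the points of all 7 genes overlap between the diets.

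Among the transporters, SLC2A1 encodes the widely expressed GLUT1, which many cells use for basal glucose uptake. Its lowest, median and highest values were 6.13, 6.34 and 6.68 in H animals, against 5.94, 6.28 and 6.85 in L animals. The groups overlapped over the whole H range. The H to L difference was 0.08 (SE 0.14, 95% confidence interval -0.21 to 0.37, limma unadjusted p = 0.581). The second probe set of SLC2A1 differed by -0.10, and across the 20 arrays it did not move with the first (Pearson r = -0.084), so the direction of SLC2A1 depends on the probe set.

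SLC2A3 encodes GLUT3, a transporter with high glucose affinity that is abundant in neurons and in white blood cells. Its lowest, median and highest values were 10.64, 11.19 and 12.08 in H animals, against 10.09, 10.51 and 11.70 in L animals. All 7 H animals lay above the L median and 3 of 7 above every L animal. The groups overlapped, mainly through L replicate 13 at 11.70, and H replicate 18 at 10.64 also lay below L replicate 5 at 10.76. The means were 11.40 ± 0.54 in the H group (SD, n = 7) and 10.66 ± 0.56 in the L group (SD, n = 6). The difference was 0.76 on the log2 scale (SE 0.28, 95% confidence interval 0.19 to 1.33), a fold of 1.69 (interval 1.14 to 2.51), with a limma unadjusted p of 0.0119 and a q of 0.442. The two-sided exact permutation test over the 13 animals, which takes no account of sex or litter, gave p = 0.0373. Without L replicate 13 the difference was 0.94 (unadjusted p = 0.00182) and SLC2A3 was called.

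SLC2A3 was read by 5 probe sets, of which 4 were kept. Besides the one above, they showed H to L differences of 0.80 (limma unadjusted p = 0.00815), 0.69 (unadjusted p = 0.0293) and 0.59 (unadjusted p = 0.0468). Thus all 4 kept probe sets of SLC2A3 passed p under 0.05 in the same direction. The correlations between pairs of these 4 probe sets over the 20 arrays ranged from 0.916 to 0.970. They share RNA and array, so this describes one measurement made 4 times, and not 4 replicates. The fifth probe set was above the array median on 8 of 20 arrays and was left out of the fits, and its values were 4.03, 4.51 and 4.93 (lowest, median, highest) in H animals and 3.81, 4.01 and 4.36 in L animals.

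**Figure D2:**
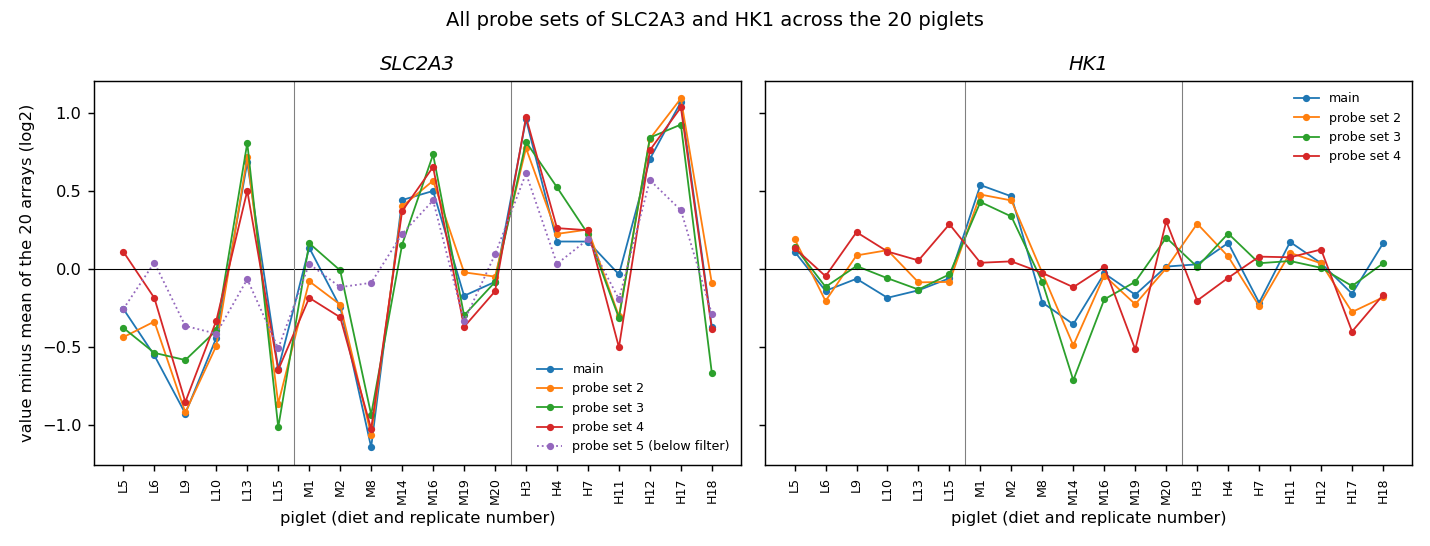
Values of all probe sets of SLC2A3 (left) and HK1 (right) minus their own mean over the 20 arrays (log2 scale), with 1 position per piglet along the x axis, ordered by diet (L, M, H) and replicate number; the dotted line is the probe set of SLC2A3 below the filter. The 4 kept probe sets of SLC2A3 rise and fall together from animal to animal (r from 0.916 to 0.970), with high values in L replicate 13 and low values in M replicate 8, and those of HK1 follow each other less closely (r from 0.185 to 0.813).

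HK1 encodes the hexokinase of most tissues, which binds to mitochondria. Its values were 7.47, 7.72 and 7.86 (lowest, median, highest) in H animals, against 7.50, 7.58 and 7.80 in L animals. The groups overlapped, although 3 of 7 H animals lay above every L animal and 1 below every L animal. The difference was 0.10 (SE 0.14, 95% confidence interval -0.18 to 0.39, unadjusted p = 0.453). The other 3 probe sets of HK1 gave 0.06, -0.03 and -0.21, the last of them with an unadjusted p of 0.0958. The highest HK1 values of all were in the M group, up to 8.22.

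HK3 encodes a hexokinase without the mitochondrial binding segment and was read by a single probe set. Its lowest, median and highest values were 8.14, 9.51 and 9.57 in H animals, against 7.36, 8.36 and 8.92 in L animals. Of the H animals, 5 of 7 lay above every L animal, and the 2 that did not, replicates 11 and 18, had 8.57 and 8.14. The means were 9.14 ± 0.57 in the H group (SD, n = 7) and 8.27 ± 0.58 in the L group (SD, n = 6). The difference was 0.87 on the log2 scale (SE 0.28, 95% confidence interval 0.29 to 1.45), a fold of 1.83 (interval 1.22 to 2.74), with a limma unadjusted p of 0.0053 and a q of 0.426. The two-sided exact permutation test over the 13 animals gave p = 0.0210. The call was missed by q alone, since p was under 0.01. HK3 was called without L replicate 13 (unadjusted p = 0.00216), without H replicate 18 (difference 1.06, unadjusted p = 0.000627) and without the 3 arrays of highest background (0.95, unadjusted p = 0.00347), in fits where far more probe sets of the whole array were called too.

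At the phosphofructokinase step, PFKL encodes the liver-type subunit of the enzyme and PFKFB3 the enzyme that makes its activator, fructose 2,6-bisphosphate. PFKFB3 had 6.18, 6.41 and 6.54 (lowest, median, highest) in H animals, against 6.23, 6.45 and 6.64 in L animals. PFKL had 6.45, 6.68 and 6.79 in H animals, against 6.24, 6.62 and 6.85 in L animals. Both genes overlapped between the groups. The differences were -0.03 for PFKFB3 (SE 0.10, 95% confidence interval -0.24 to 0.18, unadjusted p = 0.775) and 0.04 for PFKL (SE 0.13, interval -0.23 to 0.31, unadjusted p = 0.763). The second probe set of PFKFB3 gave 0.23 (SE 0.11, interval -0.01 to 0.46, unadjusted p = 0.0585), opposite in sign to the first, and the 2 probe sets correlated at 0.431 over the 20 arrays. The second probe set of PFKL gave 0.00 (SE 0.18), with a correlation of 0.266 to the first.

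GAPDH encodes the dehydrogenase that oxidizes glyceraldehyde 3-phosphate. Its values were 11.16, 11.65 and 11.76 (lowest, median, highest) in H animals and 11.43, 11.64 and 11.77 in L animals. The groups overlapped, and over all 20 arrays the values spanned 0.62 with an SD of 0.16. The difference between H and L was -0.07 (SE 0.11, 95% confidence interval -0.30 to 0.17, unadjusted p = 0.564). For the probe sets that stand for the 5 genes below the threshold, the intervals all held 0 and did not reach beyond 0.39 in size. This lies below the estimates for HK3 and SLC2A3. The intervals of their other kept probe sets also held 0 and reached as far as 0.46 for PFKFB3 and -0.46 for HK1. The other probe set of GAPDH was below the array median on every array.

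**Figure D3:**
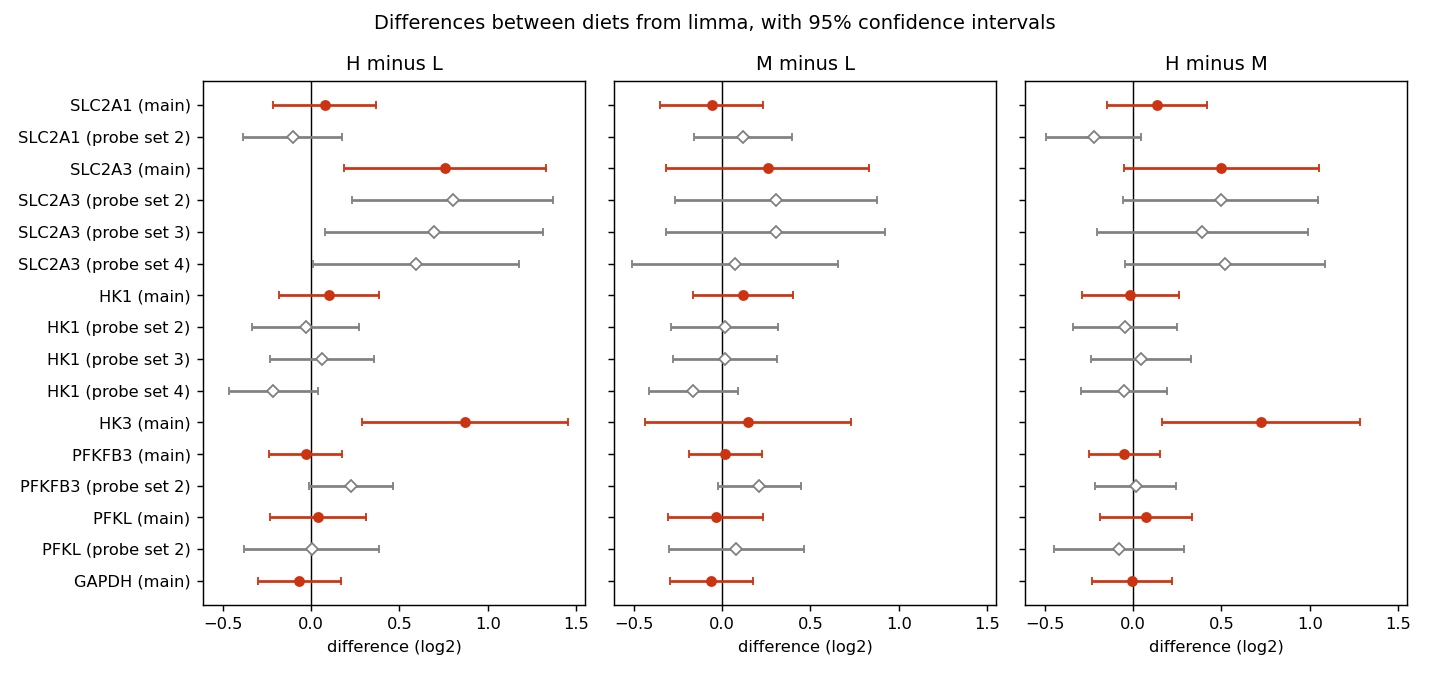
Differences between diets (log2 scale, x axes) from limma with 95% confidence intervals for the 16 kept probe sets of the 7 genes, as H minus L, M minus L and H minus M; red circles are the probe sets that stand for the genes, and open diamonds are the others. In H minus L only the 4 probe sets of SLC2A3 and the probe set of HK3 have intervals above 0, in M minus L every interval holds 0, and in H minus M the interval of HK3 alone lies above 0.

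In M against L none of the 7 genes passed p under 0.05, which 1.67% of all genes did, and none was called (0% of all kept probe sets). The 7 differences had a median of 0.02, with 4 above 0 and 3 below. For HK3 the values were 7.90, 8.46 and 9.33 (lowest, median, highest) in M animals, and the M to L difference was 0.15 (SE 0.28, 95% confidence interval -0.44 to 0.73, unadjusted p = 0.608). For SLC2A3 they were 9.87, 10.93 and 11.51 in M animals, with a difference of 0.26 (SE 0.28, interval -0.31 to 0.83, unadjusted p = 0.359). The M group overlapped with the L group in both genes.

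In H against M 1 of the 7 genes passed p under 0.05, against 7.18% of all genes, and none was called (0.0226% of all kept probe sets). At p under 0.01 it was 0 of the 7 genes, against 1.68% of all genes, 1.07% being genes with a lower level in H. This gene was HK3, with a difference of 0.72 (SE 0.27, 95% confidence interval 0.16 to 1.29, limma unadjusted p = 0.0141, q = 0.605). The HK3 difference between H and M was thus close in size to that between H and L, and the group means were in the order L, M, H. SLC2A3 differed by 0.50 (SE 0.27, interval -0.05 to 1.05, unadjusted p = 0.0741). Its means were in the same order, with 10.66 for L, 10.93 for M and 11.40 for H, but neither neighbouring pair in this order differed at p under 0.05. For HK3 the L and M means did not differ at this threshold and the M and H means did. The comparisons share animals, so H against M is no second test of H against L.

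Sex was balanced within 1 animal in each group. Between males and females none of the 7 genes was called, against 0.0181% of all kept probe sets. Among the probe sets that stand for the genes the smallest limma unadjusted p was 0.271, for SLC2A3. The second probe set of PFKL was higher in males by 0.27 (SE 0.15, limma unadjusted p = 0.0797). In males, HK3 was 8.57 to 9.57 in 4 H animals and 7.36 to 8.51 in 3 L animals, so the groups did not overlap. In females it was 8.14 to 9.51 in 3 H animals and 8.22 to 8.92 in 3 L animals, and they did. The H to L difference of HK3 was 1.28 in males (SE 0.36, limma unadjusted p = 0.00188, q = 0.383) and 0.43 in females (SE 0.38, unadjusted p = 0.269). The difference of these differences was 0.85 (SE 0.52, 95% confidence interval -0.24 to 1.94, unadjusted p = 0.12), so a different response of the sexes was not shown. For SLC2A3 the H to L difference was 0.96 in males (SE 0.37) and 0.56 in females (SE 0.40), and the interaction was 0.41 (SE 0.54, unadjusted p = 0.462). For GAPDH the difference was -0.28 in females (SE 0.16) and 0.12 in males (SE 0.15). Its interaction was 0.40 (SE 0.21, interval -0.05 to 0.85). The second probe set of PFKFB3 gave 0.46 in females (SE 0.16, interval 0.13 to 0.79) and 0.02 in males (SE 0.15). Its interaction was -0.43 (SE 0.22, interval -0.89 to 0.02). Relative to the SE, both interactions were larger in size than that of HK3, and both intervals held 0. No gene was called for the interaction, and over all kept probe sets 0% were.

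HK3 and SLC2A3 went together from animal to animal. Their Pearson r over the 20 arrays was 0.81, whereas all other pairs of the 7 genes lay between -0.41 and 0.32. After the diet means were removed it was 0.75, and the other pairs lay between -0.44 and 0.42. The points share diet, array and cell composition, and r is given as a description. Some animals stood at the edge of their diet group in both genes: L replicate 13 had the highest L value of each, and H replicate 18 the lowest H value of each. M replicate 8 had the lowest and M replicate 16 the highest M value of each.

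Over all 9345 other genes above the filter, those most like HK3 over the 20 arrays were ECE1 (r = 0.93), KHNYN (r = 0.92) and CNDP2 (r = 0.91). Those most like SLC2A3 were ARG2 (r = 0.96), PTAFR (r = 0.95) and CCR1 (r = 0.95). ARG2 encodes an arginase, PTAFR the receptor of platelet activating factor and CCR1 a chemokine receptor of myeloid cells.

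Markers of myeloid cells were higher in H animals as well. Of the monocyte markers, 7 of 7 measured lay above 0 in H against L, with a median difference of 0.75, and of the neutrophil markers 8 of 9, with a median of 0.49. Of the T cell markers 0 of 9 and of the B cell markers 0 of 6 lay above 0, with medians of -0.36 and -0.34. The erythroid markers had 0 of 5 above 0 (median -0.59) and the proliferation markers 0 of 6 (median -0.37), while NK cell and platelet markers had medians of -0.08 and 0.17. At a limma unadjusted p under 0.01, which 2.18% of all genes passed, the neutrophil markers TGM3 and IL1R2 and the monocyte markers ITGAM and VCAN were higher in H. The T cell marker CD247 and the cell division genes BIRC5 and UBE2C were lower in H at this threshold. None of these markers was called in H against L. In H against M BIRC5 was called (difference -0.83, limma unadjusted p = 3.73e-05, q = 0.198), against 0.0226% of all kept probe sets. The mean level of the monocyte markers ranged from 8.22 to 9.46 in H animals and from 7.38 to 8.58 in L animals, and that of the neutrophil markers from 7.65 to 9.19 in H animals and from 7.21 to 8.67 in L animals.

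SLC2A3 followed the neutrophil markers over the 20 arrays with r = 0.91 and the monocyte markers with r = 0.77, and HK3 with 0.79 and 0.87. The 5 other genes had r between -0.22 and 0.27 with the neutrophil markers. L replicate 13 had the highest neutrophil level of the L group, and H replicates 11 and 18 the lowest of the H group. With both marker levels as covariates the H to L difference was 0.00127 for HK3 (unadjusted p = 0.996) and 0.20 for SLC2A3 (unadjusted p = 0.356). The loss was not particular to these genes: 699 of the 22127 kept probe sets passed p under 0.05 in this fit, beside 1897 without the covariates. The marker lists also hold IL1R2, CSF3R, CXCR2 and ITGAM, which the paper itself reported to differ between L and H. For these covariates each marker was first scaled by its own mean and SD over the 20 arrays, unlike the mean log2 levels above. SLC2A1 moved the other way in this fit, to 0.30 in H against L (unadjusted p = 0.109) and to 0.33 in H against M (unadjusted p = 0.047), against 0.08 and 0.14 without the covariates. In these bulk samples a higher share of a cell type and more RNA of the gene per cell cannot be told apart.

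**Figure D4:**
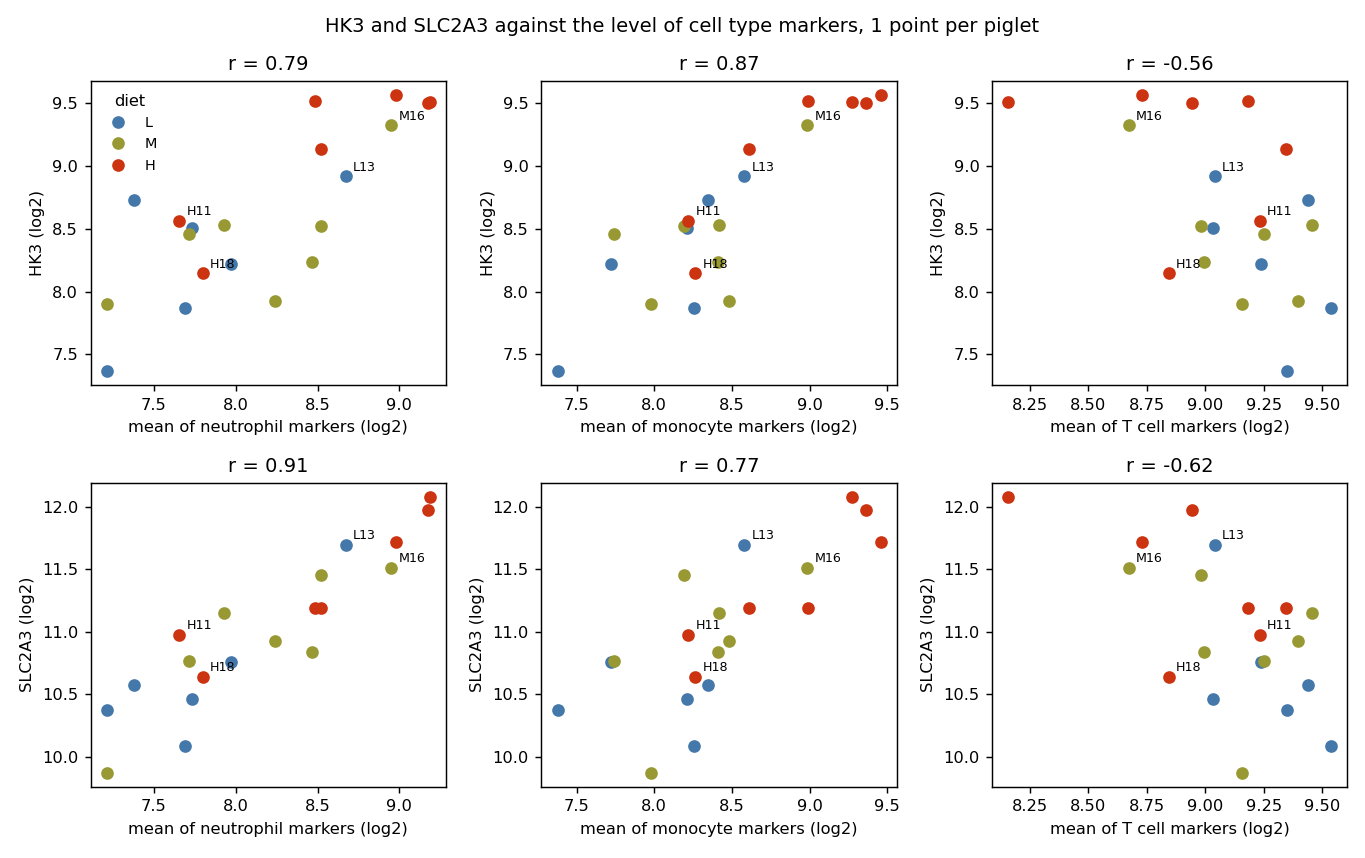
HK3 (upper panels) and SLC2A3 (lower panels), in log2 RMA values on the y axes, against the mean log2 level of neutrophil, monocyte and T cell markers on the x axes, 1 point per piglet, coloured by diet, with 4 animals named by diet and replicate number and Pearson r over the 20 animals above each panel. Both genes are high where myeloid markers are high (r from 0.77 to 0.91) and tend to be low where T cell markers are high (r of -0.56 and -0.62), and L replicate 13 is the L animal with the highest level of both genes.

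The remaining genes of glucose metabolism were described through 9 lists of 91 genes, of which 65 were measured above the filter. In H against L 30 of 65 lay above 0 and 35 below, with a median of -0.02, which is also the median of all genes. At p under 0.05 there were 3 genes, all higher in H, at p under 0.01 there was none, and none was called. These 3 were SLC2A6, PGD and GBE1.

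Of the other glucose transporters, 3 of 6 measured were above 0 (median 0.02). SLC2A6, described as a lysosomal transporter in mouse macrophages, had the smallest p, with a difference of 0.25 (SE 0.11, unadjusted p = 0.0337). Of the other glycolytic enzymes, 6 of 12 were above 0 (median -0.01), and GPI, the isomerase that follows hexokinase, had the smallest p, with 0.30 (SE 0.14, unadjusted p = 0.0521). Enzymes that set the level of fructose bisphosphates were above 0 in 2 of 3 cases (median 0.19), with PFKFB2, another enzyme of fructose 2,6-bisphosphate, at 0.44 (SE 0.28, unadjusted p = 0.136).

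Downstream of glycolysis, 2 of 4 lactate export genes were above 0 (median 0.04), with the monocarboxylate transporter SLC16A7 at 0.54 (SE 0.27, unadjusted p = 0.0575). Of the genes for pyruvate entry to mitochondria, 1 of 7 was above 0 (median -0.10), and PDK3, a kinase that inhibits pyruvate dehydrogenase, had -0.32 (SE 0.16, unadjusted p = 0.0514). In the pathways that branch off from glucose 6-phosphate, 2 of 3 pentose phosphate genes (median 0.16) and 6 of 9 glycogen genes (median 0.03) were above 0. PGD, the 6-phosphogluconate dehydrogenase, differed by 0.46 (SE 0.20, unadjusted p = 0.0334), and GBE1, the glycogen branching enzyme, by 0.48 (SE 0.22, unadjusted p = 0.0416). PGD was also the eighth of the genes most like HK3 (r = 0.89).

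Of the regulators, such as HIF1A, MYC and the kinases AKT1 and MTOR, 5 of 12 were above 0 (median -0.04), and TXNIP, an inhibitor of glucose uptake, had the smallest p, with 0.42 (SE 0.21, unadjusted p = 0.0594). Of the targets of hypoxia-inducible factor outside glycolysis, 3 of 9 were above 0 (median -0.06), and BNIP3L had the smallest p, with -0.24 (SE 0.18, unadjusted p = 0.212). The differences of HK3 and SLC2A3 were larger than that of any of the 65 genes with a higher level in H.

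**Figure D5:**
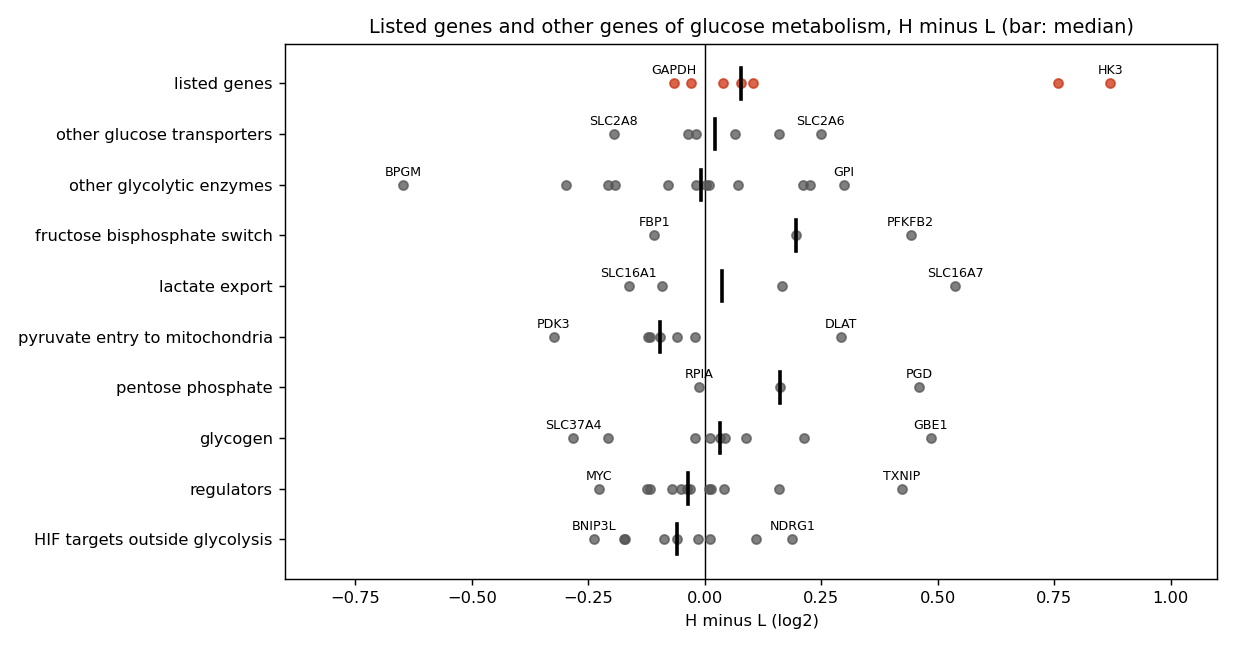
Difference between H and L (log2 scale, x axis) of the 7 genes, in red, and of the 65 other measured genes of glucose metabolism by list, in grey, with 1 point per gene, the median of each list as a bar and the highest and lowest gene of each list named. HK3 and SLC2A3, the points at 0.87 and 0.76, lie to the right of all other genes, and 8 of the 9 lists have medians between -0.10 and 0.16, with 0.19 for the fructose bisphosphate list.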

How the data were processed

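The authors read the arrays with GCOS 1.1.1 and deposited log2 values normalized by RMA (background correction, quantile normalization, probe summary). Gene names are those of the array annotation, and 446 were updated through synonyms. Control probe sets (123) were left out, and 22127 of 47845 were kept. No genome positions were used. The members and gene lists were chosen with earlier results of these data known.

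A model of diet and sex was fitted to all 20 arrays with limma 3.58.1 (R 4.3.3). The call threshold (p below 0.01 before adjustment, Storey's q below 0.21) is that of the methods. Litter, a fixed effect there, is not in the labels. The paper also filtered probe sets by present calls, not by the array median. At its threshold it reported far more probe sets between L and H than the 6 called here. All 7 genes were also compared by an exact permutation test over 1716 divisions of the 13 H and L animals. Besides HK3 and SLC2A3, its p ran from 0.189 (HK1) to 0.761 (PFKFB3). The fit was tested on simulated data. Alternatives were other filters, no sex term, no moderation, trend and robust variances, array weights, centring, cyclic loess, a Benjamini-Hochberg threshold, marker or background levels as covariates, L and H alone, other rules for probe sets, and leaving out animals. All members were named, and per list the gene of smallest p in H against L where none had p under 0.01; PGD's rank was noted after its value was seen. The number of arrays limits the precision. Figures were drawn with matplotlib 3.10.9.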

Additional observations from a re-analysis of the deposited data

Results flagged for a closer look

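SLC2A1 in M replicate 8 lay at 5.84, below the other 6 animals of the M group, of which the nearest had 6.18. The gap was 0.685 of the range of the group (n = 7), more than Dixon's 95% limit. Gaps were checked in 21 groups (7 genes in 3 diets), and chance alone picks out about 1 in 20 groups. The same animal had the lowest M values of HK3 and SLC2A3.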

How the results depend on the processing

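In H against L 0 of the 7 genes were called, and 2 (HK3, SLC2A3) with array weights, 0 to 2 when 1 animal was left out (2 without L replicate 13, 1, HK3, without H replicate 18), and 1 (HK3) without the 3 arrays of highest background, a setting added after the data were seen. In the last setting HK3 was also called in H against M, making 1. These are settings in which more of the whole array was called: 694 probe sets in H against L with array weights, 312 when L replicate 13 was left out, 125 when it was H replicate 18 and 868 for the 3 arrays, beside 6. All other settings gave 0 calls of the 7 genes in every comparison, also some in which more of the array was called. In H against L these were 118 probe sets with the background level as covariate and 57 without L replicate 10. With array weights 172 probe sets, but none of the 7 genes, were called in H against M. The cause was not tested.

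The H to L difference of HK3 ran from 0.67 to 1.06 and that of SLC2A3 from 0.65 to 0.94 when 1 animal was left out, and both passed p under 0.05 in all 20 such fits. With the marker levels as covariates neither passed, at 0.00127 and 0.20, nor in H against M, at 0.15 and 0.21. Fewer probe sets of the whole array passed p under 0.05 in H against L there, too (699, beside 1897). SLC2A1 alone of the 7 genes passed p under 0.05 in that setting, in H against M (0.33).

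The small differences of the other genes changed sign with the settings. So did those of HK3 and SLC2A3 in M against L, which were 0.15 and 0.26 in the fit of diet and sex. With any probe set of a gene, or with the mean of its probe sets, H against L was -0.10 and -0.013 for SLC2A1, -0.21 and -0.019 for HK1, and 0.23 and 0.10 for PFKFB3. M against L was 0.12 and 0.031 for SLC2A1, -0.16 and -0.0026 for HK1, and 0.082 and 0.023 for PFKL, and H against M was -0.22 and -0.044 for SLC2A1, with -0.0013 for the mean of PFKL. With the marker levels as covariates PFKL was -0.022 in H against L, SLC2A3 was -0.0095 and HK3 -0.14 in M against L, and HK1 was 0.032 in H against M. PFKFB3 in M against L was -0.040 with array weights, -0.0049 with the background level as covariate and -0.016 without the 3 arrays, where it was 0.0056 in H against M. GAPDH in H against M was 0.066 with array weights.

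When 1 animal was left out, H against L ran from -0.062 to 0.013 for PFKFB3, from -0.034 to 0.084 for PFKL and from -0.12 to 0.0086 for GAPDH. M against L ran from -0.13 to 0.053 for SLC2A1, from -0.037 to 0.29 for HK3, from -0.028 to 0.057 for PFKFB3 and from -0.10 to 0.037 for PFKL. H against M ran from -0.074 to 0.068 for HK1, from -0.088 to 0.0020 for PFKFB3, from -0.00098 to 0.13 for PFKL and from -0.041 to 0.072 for GAPDH. No paired analysis was possible because each animal has a number of its own and the labels give no litter.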

Other observations

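In H against M, 2 of the 65 other genes of glucose metabolism had an unadjusted p under 0.01, both lower in H, against 1.68% of all 9346 genes (1.07% with a lower level in H). Both are named here after their values were seen. BPGM, the mutase that makes 2,3-bisphosphoglycerate in red cells, averaged 8.60 ± 0.48 in H animals and 9.75 ± 0.92 in M animals (SD, n = 7 each), a difference of -1.18 (SE 0.37, limma unadjusted p = 0.00449, q = 0.585). BNIP3L, which takes part in the removal of mitochondria from maturing red cells, averaged 11.96 ± 0.18 in H animals and 12.47 ± 0.39 in M animals, a difference of -0.54 (SE 0.18, limma unadjusted p = 0.00644, q = 0.585). Neither was called. Of the erythroid markers 5 of 5 measured were lower in H than in M, with a median difference of -0.94, and their mean level ranged from 8.86 to 11.33 in H and from 9.93 to 11.85 in M animals; their part in the result was not tested.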
